A study of Capra hircus with 6 samples.

Results

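The nuclear genes for the subunits of the mitochondrial respiratory chain and the ATP synthase were examined in secondary hair follicle dermal papilla cells (SHF-DPCs) of the goat, Capra hircus. A gene was a member when its identifier or symbol carried the standard root for a subunit of complex I (NDUFA, NDUFB, NDUFC, NDUFS or NDUFV and a number), complex II (SDHA to SDHD), complex III (UQCR), complex IV (COX4 to COX8) or complex V (ATP5). This gave 88 of the 15944 genes listed: 37 for complex I, 4 for complex II, 9 for complex III, 17 for complex IV and 21 for complex V. The cells were wild-type primary cultures from skin of Albas cashmere goats, which the study's methods give as adults aged 3 years, used at passages 4 to 7. The control group was kept in medium without all-trans retinoic acid (ATRA), and the ATRA-treated group received ATRA, a vitamin A derivative and ligand of the nuclear retinoic acid receptors, at 0.1 mM for 24 h. Poly(A) RNA-seq gave 3 libraries per group, from cells of 3 animals according to the methods, and all 6 libraries carry the same batch label. A culture of primary cells is not a clone, so the libraries are averages over the cells in a dish, and in them fewer cells of a type and less RNA per cell cannot be told apart.

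Complexes I to IV pass electrons from NADH and succinate to oxygen in the inner mitochondrial membrane, and all but complex II pump protons as they do so. Complex V lets the protons flow back and makes ATP. Complexes I, III, IV and V are built from catalytic and accessory subunits, most of them encoded in the nucleus and imported, while a small set is made from mitochondrial DNA and has to be matched in amount. Complex II is encoded wholly in the nucleus. The 13 subunits encoded by mitochondrial DNA were not analysed here.

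Total counts ranged from 35532339 to 38012771 per library, and 87 of the 88 members passed the filter on low counts. The exception was COX6B2, the testis form of a complex IV subunit, with 0, 0 and 2 counts in the control libraries and 5, 1 and 4 in the ATRA libraries. The cells were checked against a list of dermal papilla genes, of which 16 of 17 were listed. Their summed level was 27800 to 30400 normalized CPM (counts per 1000000 counts of the library) in control cells and 1860 to 1910 under ATRA. Most of the fall was in VIM (means of 19160 and 1595 CPM) and ACTA2 (6582 and 8.366). VCAN, BMP4 and PDGFRA were among the others that fell. FGF7 moved little (25.67 and 21.88 CPM), and SOX18 and NOG overlapped between the groups. SOX2, with too few counts to be tested, was higher in every ATRA library than in any control library. PROM1, ALPL and CORIN were at or near 0 in every library. Here the library total is first adjusted by TMM scaling, which takes the bulk of the genes as its reference. The TMM factors lay between 0.8416 and 0.8511 in the control libraries and between 1.165 and 1.197 in the ATRA libraries. With TMM the median log2 fold change (log2FC, ATRA against control) of all 12588 tested genes was 0.04, and with division by library size alone it was 0.52. A direction given below is therefore relative to the TMM reference, and the value with library size only is given where it turns the sign.

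Most members moved little, and more of them fell than rose after TMM scaling, an order that library size only turned round. Of the 87 tested, 16 (18.4%) were higher in the ATRA-treated group at an adjusted p under 0.05 in edgeR's quasi-likelihood test, against 40.9% of all genes tested. A further 34 (39.1%) were lower, against 38.7% of all genes tested, and 37 were not called. The share that was lower was thus close to that of all genes, and the share that was higher was smaller. The median log2FC of the members was −0.095, with an interquartile range of −0.34 to 0.16, whereas that of all genes was −0.61 to 0.57. In all, 71 members (81.6%) had a log2FC within 0.5 of zero, compared with 44.0% of all genes. By the thresholds for a differentially expressed gene used in the study (|log2FC| above 1 and unadjusted p under 0.05), 1 member was higher, COX4I2, and 1 was lower, ATP5MC1. These 2 are 2.30% of the members, and 31.0% of all genes tested passed the same thresholds.

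**Figure D1:**
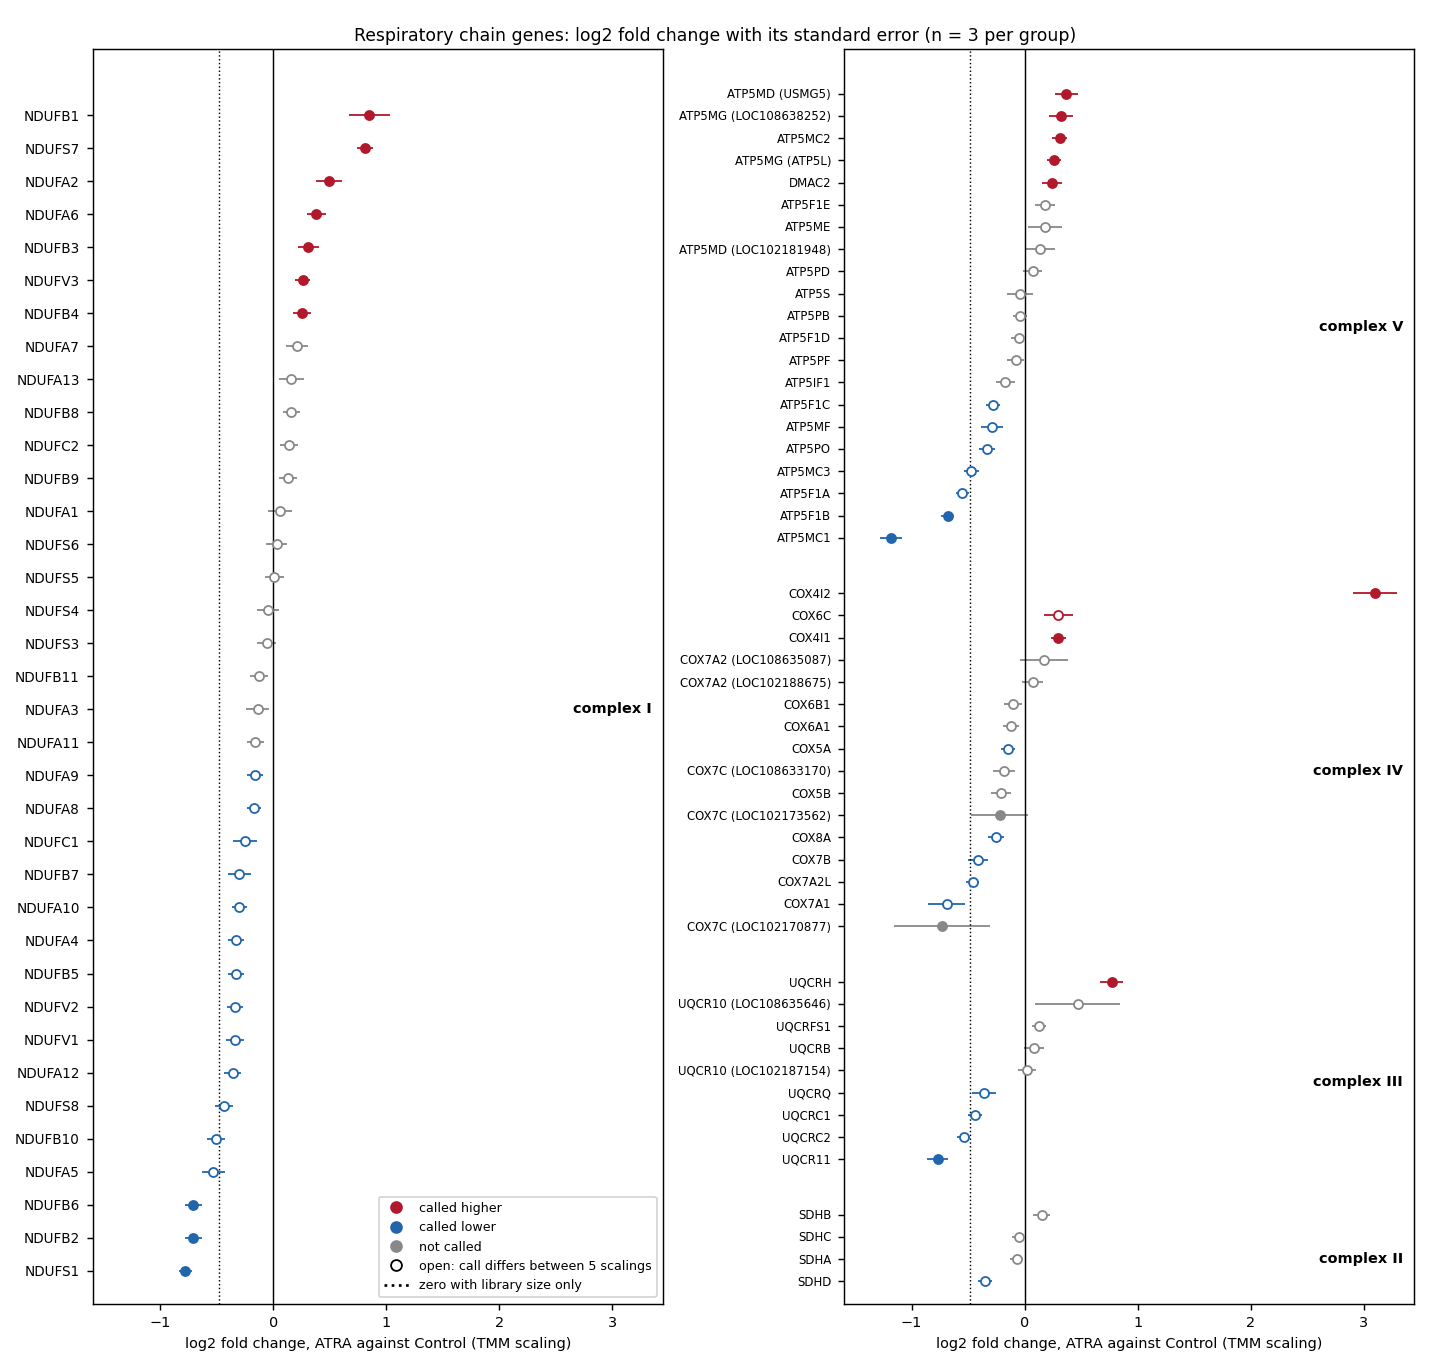
The log2FC (horizontal axis, TMM scaling) of tested members is plotted with its standard error, by complex, in red where called higher, blue where called lower and grey where not called, and open symbols mark a call that differs between the 5 scalings. COX4I2 stands alone at 3.10, ATP5MC1 is the lowest at −1.18, and most of the others lie within 0.5 of zero.

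The call of most members differed between scalings, mainly because of library size only. Under 5 scalings (TMM, library size only, upper quartile, RLE, and TMM computed without the 100 most abundant genes), 15 members were called higher every time, 6 were called lower every time, 2 were never called, and the calls of the other 64 differed. Over all genes tested, 40.0% were called higher and 22.7% lower under all 5. Of the 16 higher and 34 lower TMM calls, library size only kept 16 and 6 and turned 7 to the opposite direction. Upper quartile scaling kept 16 and 27, and RLE kept 15 and 34. TMM without the 100 most abundant genes kept 16 and 34. In each of these there were 0 opposite calls. With library size only, 58 members were higher and 6 lower, where 62.9% of all genes were higher and 22.7% lower. With upper quartile scaling the members were nearly balanced, with 23 higher and 27 lower, where 44.8% of all genes were higher and 35.8% lower. A scaling shifts all genes by about the same amount, so the place of the members among all genes is nearly fixed whichever is used. Their median lay 0.13 below the median gene, and 55 of the 87 lay below it. The 6 members lower under every scaling were NDUFS1, NDUFB2 and NDUFB6 of complex I, UQCR11 of complex III, and ATP5F1B and ATP5MC1 of complex V. Counted by overlap instead of by a test, 12 members had all 3 ATRA libraries above all 3 control libraries, and 31 had them all below, against 41.2% and 39.0% of all genes.

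Within complex I, 7 of the 37 subunit genes (18.9%) were higher, 17 (45.9%) lower and 13 not called, against 40.9% and 38.7% of all genes. The median log2FC of the complex was −0.136. With library size only, the split turned to 24 (64.9%) higher and 3 (8.11%) lower, against 62.9% and 22.7% of all genes. With upper quartile scaling it was 11 (29.7%) higher and 12 (32.4%) lower, against 44.8% and 35.8% of all genes. The catalytic core holds the 7 nuclear subunits that carry out electron transfer. Of these 5 (71.4%) were lower, 1 (14.3%) higher and 1 not called (median −0.338) with TMM, while with library size only NDUFS1 alone stayed lower. NDUFS1, the large iron-sulfur subunit of the NADH-oxidizing module, was at 109, 111 and 113 normalized CPM in control libraries 1 to 3 and at 61.8, 65.5 and 67.0 in ATRA libraries 1 to 3, the order kept for all values below. The groups lay far apart, and NDUFS1 fell with a log2FC of −0.78 ± 0.0589 (SE, n = 3 per group; adjusted p = 7.67e-10). NDUFS7, which carries the last iron-sulfur cluster before ubiquinone, went the other way. Its levels were 37.3, 41.1 and 36.3 CPM in control cells and 67.9, 62.2 and 70.6 under ATRA, again with no overlap (log2FC 0.81 ± 0.072, adjusted p = 7.62e-09).

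Because both genes are read in the same library, their ratio does not depend on the scaling. There were 0.343, 0.369 and 0.323 NDUFS7 reads for each NDUFS1 read in the control libraries and 1.1, 0.95 and 1.05 in the ATRA libraries. The ratio thus went from 0.345 ± 0.0232 to 1.03 ± 0.0761 (SD, n = 3), and the exact permutation test (two-sided) gave p = 0.1, the smallest value that 3 against 3 allows. This pair was chosen after its values were seen. Gene lengths were not used, so the ratios compare libraries and not the amounts of the 2 transcripts.

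Other core subunits lay between these. NDUFS8, another iron-sulfur protein, had a log2FC of −0.44 ± 0.0788 (adjusted p = 5.87e-05), which was 0.04 with library size only. NDUFV1, which binds NADH and the flavin, and its partner NDUFV2 were both at −0.34, and at 0.14 with library size only. NDUFS3 was not called, at −0.06 ± 0.0856.

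Accessory subunits of complex I went both ways. Of the 13 NDUFA genes, 2 (15.4%) were higher and 6 (46.2%) lower, and of the 11 NDUFB genes, 3 (27.3%) were higher and 5 (45.5%) lower. Over all genes the shares were 40.9% and 38.7%. NDUFB1, a small protein of the membrane arm, was at 10.4, 15.8 and 11.3 CPM in control cells and at 22.6, 17.0 and 28.0 under ATRA. Control library 2 and ATRA library 2 came near each other, yet the groups did not overlap (log2FC 0.85 ± 0.184, adjusted p = 0.0012). NDUFA2, a subunit of the NADH-oxidizing module, was at 28.1, 34.0 and 26.0 CPM in control cells and at 40.8, 34.6 and 48.2 under ATRA (log2FC 0.49 ± 0.114). NDUFA6, which anchors the acyl carrier protein, had a log2FC of 0.38 ± 0.0837. NDUFB3, NDUFB4 and NDUFV3 complete the 7 higher members, with log2FC values of 0.31, 0.25 and 0.26.

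NDUFB6 and NDUFB2, both of the membrane arm, were the lowest accessory subunits. NDUFB6 was at 60.1, 61.5 and 51.5 CPM in control cells and at 35.8, 33.5 and 36.6 under ATRA (log2FC −0.71 ± 0.0762, adjusted p = 1.01e-07). The values of NDUFB2 were 83.5, 97.4 and 79.0 CPM against 54.7, 49.5 and 54.7 (log2FC −0.71 ± 0.0764). Neither gene overlapped between the groups, and both stayed lower with library size only, at −0.23 each. NDUFA5, of the quinone-binding module, fell with a log2FC of −0.53 ± 0.101, and was at −0.05 and not called with library size only. NDUFA4 is listed with complex I by its name although it is now counted as a subunit of complex IV. It was at −0.33 ± 0.0737, and at 0.14 with library size only.

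Complex II is the succinate dehydrogenase that also works in the citric acid cycle. It had 1 gene called lower (25%) and 3 not called, against 38.7% of all genes lower and 40.9% higher. Of its 4 subunits none was called higher by edgeR, also at an unadjusted p under 0.05, where the count by edgeR, by DESeq2 and by R's t.test function was 0 each. SDHD, one of the membrane anchors, was at 79.6, 83.3 and 75.7 CPM in control cells and at 64.6, 63.7 and 59.3 under ATRA. The groups did not overlap, and SDHD fell with a log2FC of −0.35 ± 0.0636 (adjusted p = 7.04e-05), although it was at 0.13 with library size only. SDHA, the flavoprotein, had the highest CPM of the complex. It was at 187, 194 and 175 CPM in control cells against 180, 166 and 184 under ATRA (log2FC −0.07 ± 0.06, adjusted p = 0.293). SDHC, the other anchor, was at −0.05 ± 0.0588, and SDHB, the iron-sulfur subunit, at 0.15 ± 0.0718 (adjusted p = 0.066). Each of these 3 overlapped between the groups. With library size only SDHA, SDHB and SDHC were called higher, at 0.41, 0.63 and 0.43, where 62.9% of all genes were higher.

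In complex III, 1 of 9 genes (11.1%) was higher, 4 (44.4%) were lower and 4 were not called, against 40.9% and 38.7% of all genes. The median log2FC was 0.020. UQCRH (LOC102176290), the acidic hinge protein at the docking site of cytochrome c, was the one that rose. It was at 107, 126 and 106 CPM in control cells and at 200, 158 and 221 under ATRA, with every ATRA library above every control library (log2FC 0.77 ± 0.103, adjusted p = 8.49e-06). UQCR11 (LOC102168533), another of the small subunits, was at 41.1, 46.5 and 39.5 CPM in the control group and fell to 27.4, 21.4 and 25.9 (log2FC −0.77 ± 0.0916, adjusted p = 4.2e-07). The ratio of UQCRH to UQCR11 reads within a library, a pair likewise chosen after its values were seen, went from 2.67 ± 0.0531 to 7.73 ± 0.686 (SD, n = 3; exact permutation p = 0.1).

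Both core proteins of complex III fell after TMM scaling, and neither was called with library size only. UQCRC1 (LOC102188264), which had the highest CPM of the complex, was at 201, 187 and 186 CPM in control cells and at 145, 131 and 147 under ATRA (log2FC −0.44 ± 0.0596). UQCRC2 (LOC100861263) was at 117, 115 and 111 CPM and then at 76.9, 78.5 and 80.3 (log2FC −0.54 ± 0.0566). With library size only they were at 0.04 and −0.06. UQCRFS1, the Rieske iron-sulfur protein, was not called, at 0.13 ± 0.0634, although its ATRA libraries (75.2, 73.2 and 79.3 CPM) all lay above its control libraries (73.0, 68.7 and 65.8), and it was called without control library 1 (0.17) or ATRA library 2 (0.15). UQCRQ was at −0.36 ± 0.104, and at 0.12 with library size only. UQCR10 was listed under a pair of identifiers, and since how shared reads were divided is not given in the sources used here, its values are uncertain.

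Complex IV, cytochrome c oxidase, held the largest change among the members. Of its 16 tested genes, 3 (18.8%) were higher, 5 (31.2%) lower and 8 not called (median log2FC −0.165), against 40.9% and 38.7% of all genes. COX4I2 (LOC102179296) is the second isoform of subunit 4, known from lung and from its response to low oxygen. It was at 0.838, 0.835 and 0.623 CPM in control cells and at 7.4, 6.46 and 5.82 under ATRA, a fold of 8.56 (log2FC 3.10 ± 0.193, adjusted p = 3.89e-11). The groups lay far apart. COX4I1 (LOC102188434), the ubiquitous isoform and the member of the complex with the highest CPM, was at 209, 212 and 193 CPM in control cells and at 264, 221 and 270 under ATRA (log2FC 0.30 ± 0.0698, adjusted p = 7.63e-04). Both isoforms were called higher under all 5 scalings.

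COX4I2 nevertheless stayed the minor isoform by reads. Of all reads on the 2 isoforms, COX4I2 took 0.4%, 0.393% and 0.321% in control libraries 1 to 3 and 2.72%, 2.84% and 2.11% in ATRA libraries 1 to 3. The share went from 0.371% ± 0.0437 to 2.56% ± 0.39 (SD, n = 3), without overlap (exact permutation p = 0.1, two-sided). The summed level of a list of endothelial markers moved in the same direction. It was 0.903 to 1.24 CPM in the control libraries and 6.19 to 9.16 in the ATRA libraries, with PECAM1 carrying nearly all of the rise. Of its 5 listed genes, PECAM1 rose from a mean of 0 to 6.095 CPM, and TEK rose from a mean of 0.619 to 1.132 CPM (log2FC 0.87 ± 0.297, adjusted p = 0.0122). CDH5, VWF and KDR were under 0.3 CPM in both group means. KDR went the other way, from a mean of 0.2193 to 0.02298 CPM without overlap, with too few counts to be tested. Leukocyte markers (5 of 7 listed) went from 9.24 to 12.9 to between 41.3 and 44.2 CPM, with CD68 and CD14 carrying nearly all of it. AIF1, CSF1R and CD3E were under 0.3 CPM in both group means. The sums of the melanocyte, adipocyte and keratinocyte lists were also higher in every ATRA library. The melanocyte sum went from 16.1 to 17.6 to between 32.2 and 39.0 CPM. MITF carried that rise and KRT10 the keratinocyte one, while PMEL and KRT14 were lower. The part of these markers in the COX4I2 values was not tested.

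Subunit 7A showed the opposite for its muscle isoform. COX7A1 (LOC102175610), the form of heart and skeletal muscle, was at 6.19, 7.82 and 5.73 CPM in control cells and at 4.0, 3.24 and 5.03 under ATRA (log2FC −0.69 ± 0.166, adjusted p = 9.96e-04), and with library size only it was at −0.21 and not called. COX7A2, the widely expressed form, was not called in either of its listings, at 0.07 ± 0.0972 for the one with more reads. Of the reads on COX7A1 and that listing of COX7A2, COX7A1 took 15.3%, 17.7% and 15.7% in the control libraries and 9.41%, 9.92% and 11.6% in the ATRA libraries (exact permutation p = 0.1). With both COX7A2 listings counted, it took 14.4%, 16.2% and 14.8% and then 8.73%, 9.18% and 10.7%. Either way the share in each ATRA library was below that in every control library. A list of skeletal or smooth muscle markers (5 of 6 listed) also fell. It went from 3090 to 3280 CPM in the control libraries to between 36.6 and 45.0 in the ATRA libraries, nearly all of it TAGLN and CNN1. DES, at under 1 CPM, was lower, MYH11 was not called (−0.24), and MYF5 had too few counts to be tested. The part of this list in the COX7A1 values was not tested. COX7A2L, a relative of the COX7A genes that joins complexes III and IV into supercomplexes, was at −0.46 ± 0.0576, and at 0.02 with library size only.

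**Figure D2:**
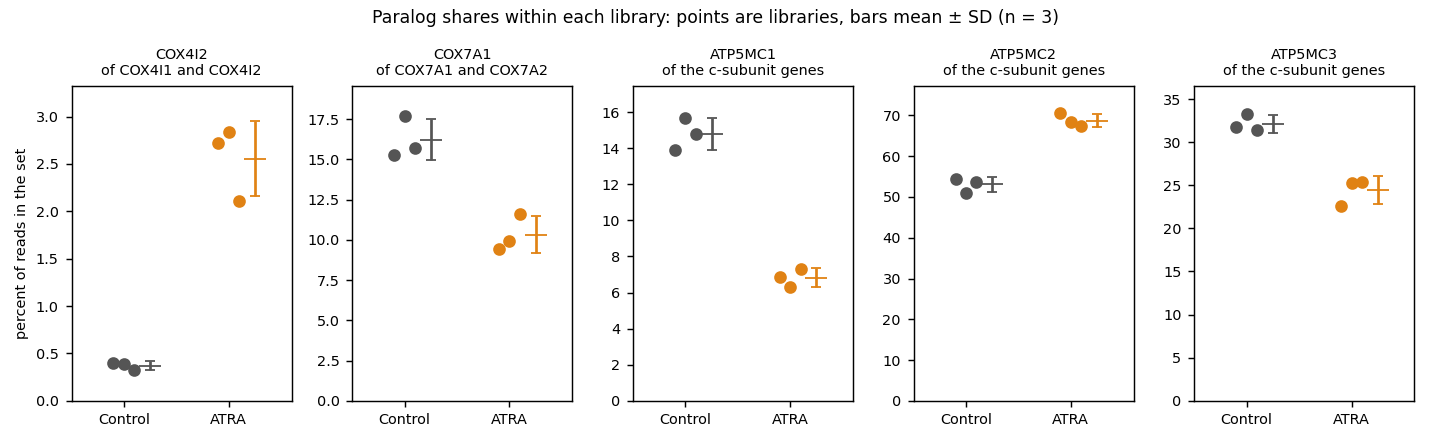
The percent of reads on a set of paralogs that fell on the named gene (vertical axes, each from 0) is plotted for each library, with the mean and SD beside the 3 points of each group. COX7A2 is counted by its listing with more reads. COX4I2 and ATP5MC2 took larger shares in every ATRA library than in any control library, and COX7A1, ATP5MC1 and ATP5MC3 took smaller ones.

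Other complex IV genes moved less. COX6C, a small subunit, was called higher at 0.30 ± 0.124 (adjusted p = 0.0379) although its groups overlapped, with 44.7, 58.0 and 40.5 CPM in control cells and 60.3, 50.2 and 66.4 under ATRA. The call was lost without any 1 library other than control library 2, with log2FC values of 0.25 and 0.19 without control libraries 1 and 3 and of 0.28, 0.40 and 0.20 without ATRA libraries 1, 2 and 3. COX7B and COX8A, both small membrane subunits, were at −0.41 ± 0.0897 and −0.25 ± 0.0712, and at 0.06 and 0.23 with library size only. COX6A1 and COX6B1 were not called (−0.12 ± 0.0679 and −0.10 ± 0.0786), COX6A1 being called lower without control library 3 (−0.18), and with library size only they were at 0.36 and 0.38. COX7C was listed under 3 identifiers that were not called, and the division of reads among these is uncertain. COX6A2 and COX8B were not analysed here.

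In complex V, the ATP synthase, 5 of the 21 listings (23.8%) were higher, 7 (33.3%) lower and 9 not called (median log2FC −0.045), against 40.9% and 38.7% of all genes. The 5 higher listings were ATP5MC2, ATP5MD (USMG5), both of ATP5MG, and DMAC2 (listed as ATP5SL, 0.24). DMAC2, ATP5S and ATP5IF1 are in the list by name only, as an inhibitor or factors and not subunits of the synthase. Of the 5 genes for the catalytic head and central stalk 3 (60%) were lower and 2 not called, and with library size only ATP5F1B alone stayed lower. ATP5F1B, the beta subunit that holds the catalytic sites, was at 552, 551 and 529 CPM in control cells and at 341, 324 and 351 under ATRA (log2FC −0.68 ± 0.0564, adjusted p = 2.47e-09). The groups were far apart, and the gene stayed lower with library size only, at −0.21. ATP5F1A, the alpha subunit and the member with the highest CPM of all, was at 639, 684 and 613 CPM and then at 434, 423 and 466 (log2FC −0.55 ± 0.0613). It did not overlap between the groups, but was at −0.07 and not called with library size only. ATP5F1C, the gamma subunit of the rotor, was at −0.28 ± 0.0611 with TMM and at 0.20, called higher, with library size only.

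The c-ring turns as protons pass, and its protein is made from 3 genes that differ in their import sequence but give the same mature subunit. These genes diverged. ATP5MC1 (listed as ATP5G1) was at 51.2, 59.5 and 50.8 CPM in control cells and at 25.2, 19.7 and 26.4 under ATRA, a 2.27-fold lower level (log2FC −1.18 ± 0.0981, adjusted p = 4.03e-09). ATP5MC2 (ATP5G2) was at 201, 193 and 184 CPM and then at 260, 213 and 242 (log2FC 0.31 ± 0.0673, adjusted p = 4.54e-04). Neither overlapped between the groups, and both calls held under all 5 scalings. ATP5MC3 (ATP5G3) was at 117, 126 and 107 CPM in control cells and at 83.1, 78.9 and 91.3 under ATRA (log2FC −0.47 ± 0.0699), and at 0.01 with library size only.

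Within each library the shares of the c-subunit genes shifted, whatever the scaling. ATP5MC1 took 13.9%, 15.7% and 14.8% of their reads in the control libraries and 6.84%, 6.31% and 7.33% in the ATRA libraries. ATP5MC2 took 54.5%, 51.0% and 53.8% in the control libraries and 70.6%, 68.4% and 67.3% in the ATRA libraries. ATP5MC3 went from 32.1% ± 1.03 to 24.4% ± 1.6 (SD, n = 3). None of the 3 shares overlapped between the groups, and each gave the smallest exact permutation p that this design allows, 0.1. Set against each other, there were 3.6 ± 0.343 ATP5MC2 reads per ATP5MC1 read in control cells and 10.1 ± 0.846 under ATRA, a ratio chosen after its values were seen.

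Of the 6 listings for small membrane subunits of complex V, 3 (50%) were higher, 1 was lower and 2 were not called, against 40.9% of all genes higher. ATP5MG, the g subunit at the base where synthase dimers meet, was higher in both of its listings, at 0.26 ± 0.0652 (ATP5L) and 0.32 ± 0.107 (LOC108638252), the latter not called without control library 3 (0.24), ATRA library 1 (0.27) or ATRA library 3 (0.22). ATP5MD (USMG5), a small protein of the same region, was at 35.4, 38.7 and 31.1 CPM in control cells and at 47.2, 37.2 and 51.4 under ATRA (log2FC 0.37 ± 0.105, adjusted p = 0.00419), with ATRA library 2 inside the control range. Its other listing (LOC102181948) was not called, at 0.14 ± 0.129 (adjusted p = 0.332). Of the 4 genes for the peripheral stalk, 1 was lower and 3 were not called. ATP5IF1, the inhibitor that blocks the enzyme from running backwards, was not called, at −0.17 ± 0.0839, and was at 0.31 with library size only. It was called lower without control library 3 (−0.22), ATRA library 1 (−0.23) or ATRA library 3 (−0.22).

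Summed over its genes, complex V was the only complex whose groups did not overlap after TMM scaling. Its sums were 2758, 2900 and 2604 CPM in the control libraries and 2390, 2112 and 2429 in the ATRA libraries, a ratio of 0.839. The sums of complexes I, II, III and IV overlapped between the groups, with ratios of 0.906, 0.95, 0.965 and 0.942. With library size only, the ATRA libraries lay above the control libraries for every complex, with ratios from 1.17 for complex V to 1.34 for complex III. As a share of all counts, the members together took 0.614%, 0.651% and 0.58% in the control libraries and 0.793%, 0.704% and 0.801% in the ATRA libraries. The direction of the sums thus turned with the scaling, while complex V had the lowest ratio of the 5 under both. With ATP5F1A left out, complex V was at 0.886 after TMM scaling, still below the other complexes with all their genes. Without the member of highest CPM in each complex, which is COX4I1 in IV, both IV and V were at 0.886. The groups then did not overlap for complex V or for complex II (0.947).

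**Figure D3:**
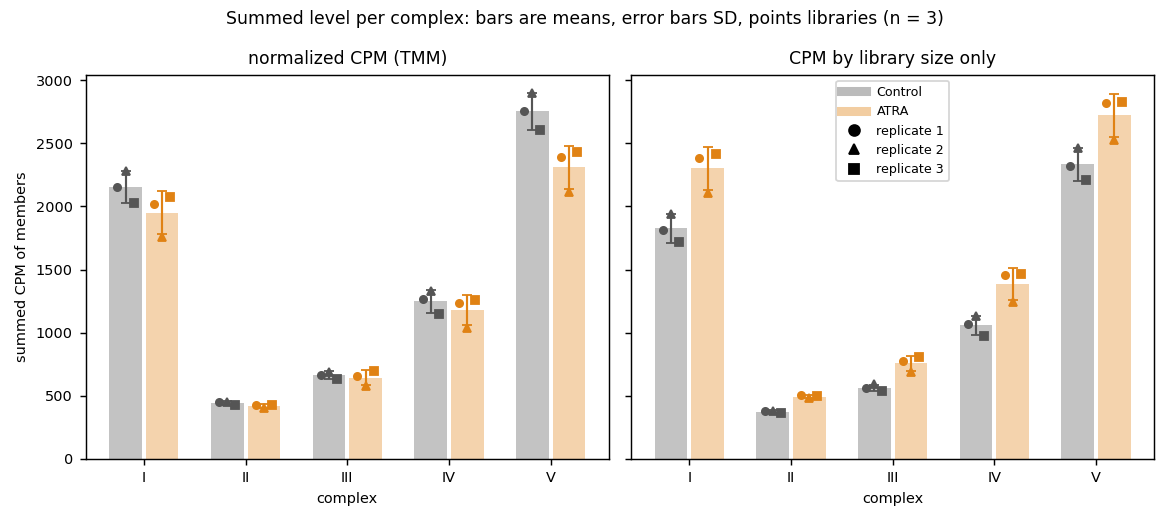
Summed CPM of the members of each complex (vertical axis, from 0) is plotted for the control and ATRA libraries, with bars for the mean, error bars for the SD and points for the 3 libraries, after TMM scaling on the left and by library size only on the right. On the left only complex V is separated, with the ATRA libraries below, and on the right every complex has its ATRA libraries above.

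Most members shared the same lowest library within each group. ATRA library 2 was the lowest of its group for 79 of the 87 members, and control library 3 was the lowest of its group for 71. Control library 2 was the highest of its group for 64, and ATRA library 3 for 57. These counts were not made over all genes, so whether this order is particular to the members was not tested. Over all genes but those with very few counts, ATRA library 2 stood apart from its group. The chi-square per degree of freedom was 18.4 against ATRA library 1 and 17.3 against ATRA library 3, and 5.01 between ATRA libraries 1 and 3. ATRA library 2 had the highest TMM factor (1.197), which enters each of its CPM values, while control library 3 had 0.849 and control library 2 had 0.8511. In shares of all counts, where no factor enters, the members together took 0.704% in ATRA library 2 against 0.793% and 0.801% in ATRA libraries 1 and 3. They took 0.58% in control library 3 against 0.614% and 0.651% in control libraries 1 and 2. The part of the factors in this order was not tested. Without ATRA library 2, 26 members were higher and 32 lower. The 11 members that became higher included SDHB (0.19), UQCRFS1 (0.15) and COX7A2 (0.17). Without control library 3, 12 were higher and 40 lower. The shares of all genes without either library are not given here, so whether these shifts are particular to the members was not tested.

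**Figure D4:**
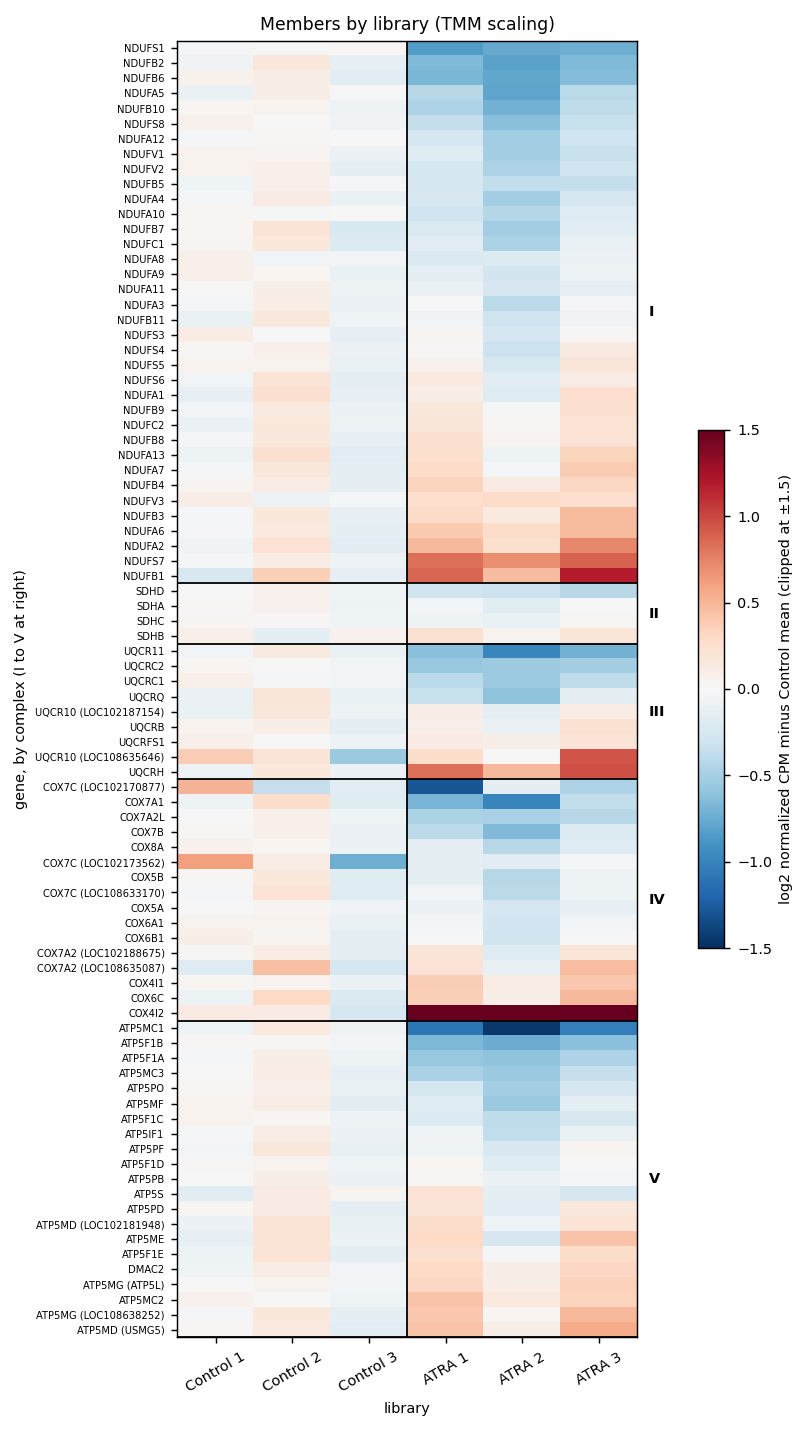
The colour shows log2 normalized CPM of tested members in each library minus the mean of the control libraries, clipped at 1.5 in both directions, with genes in rows by complex and libraries in columns. ATRA library 2 is bluer than its neighbours for nearly every gene, being the lowest of its group for 79 of the 87 members, and COX4I2 and ATP5MC1 stand out within complexes IV and V.

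Other genes of the pathway were followed through lists that do not overlap with the members. A pair of subunits whose names fall outside the rule rose. CYC1, the cytochrome c1 of complex III, was at 102, 101 and 95.8 CPM in control cells and at 166, 145 and 160 under ATRA (log2FC 0.66 ± 0.0613, adjusted p = 1.44e-08). NDUFAB1, the acyl carrier protein bound to complex I, was at 27.2, 30.9 and 28.5 CPM and then at 45.2, 40.1 and 43.0 (log2FC 0.57 ± 0.0758). Both stayed higher under all 5 scalings, and neither overlapped between the groups. NDUFA4L2, the paralog of NDUFA4 known from low oxygen, had too few counts to be tested.

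Assembly factors build the complexes without staying in them. Of 52 listed genes, 27 (51.9%) were higher and 8 (15.4%) lower, with a median log2FC of 0.274, against 40.9% higher and 38.7% lower over all genes tested and 18.4% and 39.1% of the members. Under all 5 scalings 26 of the assembly factors were higher and 1, COX20, was lower, where 40.0% and 22.7% of all genes were. The factors of complex IV made up the larger part, with 14 of 22 (63.6%) higher and 2 (9.09%) lower. COX17, the copper chaperone that feeds cytochrome c oxidase, was at 16.3, 18.4 and 17.6 CPM in control cells and at 58.6, 45.4 and 63.1 under ATRA (log2FC 1.67 ± 0.104, adjusted p = 6.53e-11). COX19, another protein of copper delivery, was at 1.33 ± 0.0704. COX20, a chaperone of the mitochondrially encoded subunit COX2, fell from 25.4, 28.2 and 22.1 CPM to 13.0, 11.1 and 11.8 (log2FC −1.07 ± 0.0995).

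For the other complexes, 4 of 16 assembly factors of complex I (25%) were higher and 5 (31.2%) lower, and 3 of 4 for complex II (75%) were higher. For complex III 3 of 6 (50%) were higher and 1 (16.7%) lower, and for complex V 3 of 4 (75%) were higher. Over all genes tested the shares were 40.9% higher and 38.7% lower. TIMMDC1, which helps to build the membrane arm of complex I, rose (0.90 ± 0.0735), and NDUFAF5, which modifies NDUFS7, fell (−0.74 ± 0.131). SDHAF3 and SDHAF2, which mature SDHB and SDHA, were at 1.22 ± 0.142 and 0.84 ± 0.0856. TMEM242, needed for the c-ring, was at 6.06, 7.08 and 5.73 CPM in control cells and at 18.3, 17.6 and 17.4 under ATRA (log2FC 1.5 ± 0.104). The values of TMEM242 did not overlap between the groups. UQCC1 and UQCC3, which help to make cytochrome b, were at 0.72 and 0.71, and BCS1L, which inserts the Rieske protein, was at −0.57.

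Of 15 regulators of mitochondrial biogenesis 8 (53.3%) were higher and 5 (33.3%) lower, against 40.9% and 38.7% of all genes. PPARGC1A, the coactivator often called the master regulator of the process, was scarce, at 0.644, 0.618 and 0.778 CPM in control cells and 0.116, 0.453 and 0.121 under ATRA (log2FC −1.54 ± 0.453, adjusted p = 0.00479). ATRA library 2 stood above the other ATRA libraries, and without it the log2FC was −2.5. ESRRG, a nuclear receptor partner of these coactivators, fell, with a log2FC of −1.67 ± 0.148, and its relative ESRRA rose, with one of 0.90 ± 0.0726. TWNK, the helicase of mitochondrial DNA, was at 16.8, 15.4 and 16.9 CPM in control cells and at 40.8, 38.3 and 46.8 under ATRA (log2FC 1.36 ± 0.0865). NRF1, a transcription factor of many of the member genes, and TFAM, which packages mitochondrial DNA, were at 0.41 ± 0.0949 and 0.39 ± 0.109. GABPA was not called, at −0.03 ± 0.0713, and was at 0.45 with library size only.

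Of 13 enzymes of the tricarboxylic acid cycle 10 (76.9%) were lower and 1 (7.69%) higher, with a median log2FC of −0.411, against 38.7% and 40.9% of all genes. With library size only 3 were lower and 5 higher, where 22.7% and 62.9% of all genes were. SUCLG2 and SUCLG1, subunits of succinyl-CoA ligase, were the lowest, at −0.99 ± 0.0635 and −0.77 ± 0.0666, and stayed lower under all 5 scalings. SUCLA2, the subunit that makes the ligase use ADP, was at 0.17 ± 0.0686, and was not called without control library 3 (0.12), ATRA library 1 (0.17) or ATRA library 2 (0.13). Among the 21 tested genes of cytochrome c, coenzyme Q synthesis, the carriers of adenine nucleotides and phosphate, and the outer membrane channels VDAC1, VDAC2 and VDAC3, 8 (38.1%) were higher and 8 (38.1%) lower, shares close to those of all genes. COQ10A, a coenzyme Q binding protein, was at 10.7, 9.65 and 11.2 CPM in control cells and at 45.5, 45.5 and 48.6 under ATRA (log2FC 2.15 ± 0.0824, adjusted p = 2.55e-14). PDSS1 and COQ2, early enzymes of coenzyme Q synthesis, fell, with log2FC values of −2.03 ± 0.186 and −1.52 ± 0.0866. SLC25A6, an adenine nucleotide carrier, rose, with a log2FC of 0.93 ± 0.0575.

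**Figure D5:**
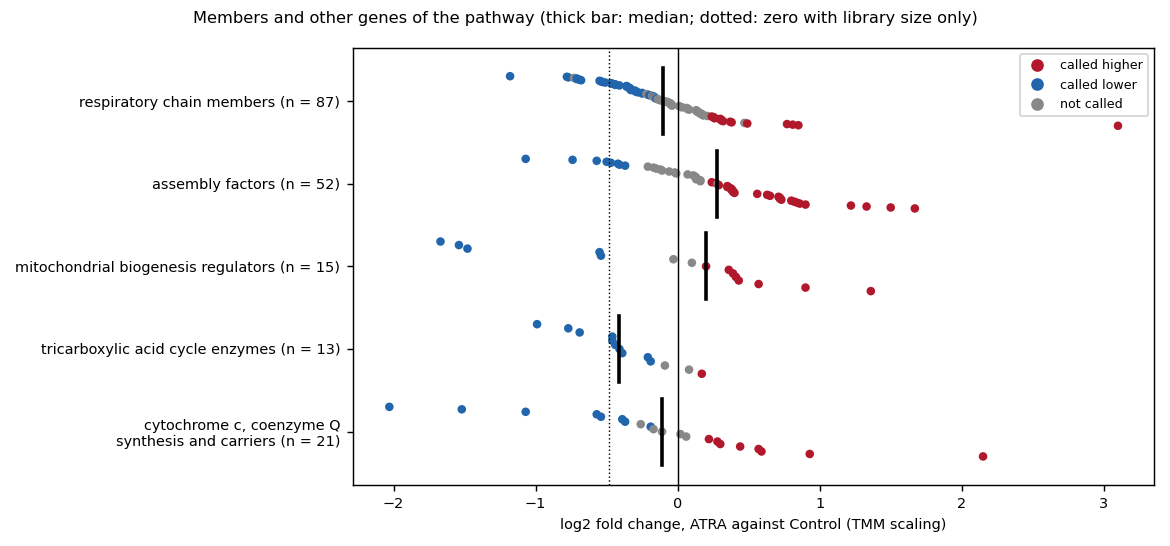
Each point is the log2FC of 1 gene (horizontal axis, TMM scaling) for the members and the other lists of the pathway, coloured by its call, with a thick bar at the median of each list and a dotted line at the zero of library size only. The assembly factors have their median at 0.274, the tricarboxylic acid cycle enzymes at −0.411, and the members lie in a narrower band around −0.095 with COX4I2 apart.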

How the data were processed

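The authors isolated poly(A) mRNA, cleaned reads with fastp and TrimGalore 0.6.6, and deposited whole-number counts of reads per gene, not normalized. Per the labels, HISAT2, featureCounts and DESeq2 were used. Versions, genome build, strand setting and the treatment of shared reads are not given in the sources used here, so genes listed more than once (5 symbols among the members) are uncertain, and no coordinates are printed.

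From these counts, genes passing edgeR's filterByExpr (12588) were TMM-scaled. The quasi-likelihood test of edgeR (robust, two-sided) took all 6 libraries, with Benjamini-Hochberg adjustment over all genes tested. Normalized CPM uses TMM library sizes, and log2FC a prior count of 0.125. A gene was called at an adjusted p under 0.05. With 35532339 to 38012771 counts per library, 3 libraries per group limit precision, and p-values measure the spread between these libraries. Since the values are counts, the t.test function named in the study's methods was an alternative, as were DESeq2, other scalings, filters and thresholds, a replicate block, and leaving out each library.

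Genes named are those called with the largest changes (up to 4 per direction and complex, 2 per other list), isoform sets, catalytic subunits and the member with the highest CPM per complex. NDUFB3, NDUFB4, NDUFV3, DMAC2 and the read ratios of gene pairs were chosen after their values were seen. The members and lists were chosen with earlier results of these data known. The values of 1 member, kept in the counts and sums, are not reported here. Tests were checked on simulated counts in which 200 genes were changed. Far more genes were called in the data, so this check does not cover the scaling. At a 1.5-fold change edgeR recovered 62 of 66 genes, DESeq2 60 and the t.test function 2. Software was R 4.3.3, edgeR 4.0.16, DESeq2 1.42.0, Python 3.11.15, scipy 1.17.1 and matplotlib 3.10.9.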

Additional observations from a re-analysis of the deposited data

How the results depend on the processing

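Library size only, the scaling that moved the most results, gave 58 members higher and 6 lower, 4 higher and 0 lower past |log2FC| 1 (NDUFB1, NDUFS7, UQCRH and COX4I2), a median of 0.382 and a summed ratio of 1.25. For complexes I to V it gave 24, 3, 5, 11 and 15 higher, 3, 0, 1, 0 and 2 lower, medians of 0.341, 0.418, 0.497, 0.313 and 0.434, and summed ratios of 1.26, 1.32, 1.34, 1.31 and 1.17. The counts of 0 were also 0 at an unadjusted p under 0.05. It reversed the sign of NDUFS3 (0.42), NDUFS8 (0.04), NDUFV1 and NDUFV2 (0.14 each), NDUFA4 (0.14), SDHA (0.41), SDHC (0.43), SDHD (0.13), UQCRC1 (0.04), UQCRQ (0.12), COX6A1 (0.36), COX6B1 (0.38), COX7A2L (0.02), COX7B (0.06), COX8A (0.23), ATP5F1C (0.20), ATP5MC3 (0.01), ATP5IF1 (0.31), GABPA (0.45) and the assembly factor COX11 (0.06). Upper quartile scaling gave 23 members higher and 27 lower, with 11 higher and 12 lower in complex I, 1 and 1 in II, 2 and 4 in III and 6 and 6 in V, a complex II median of 0.016, and reversed SDHA (0.01), SDHC (0.03), NDUFS3 (0.02) and GABPA (0.05), none of which was called.

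R's t.test function called 5 members higher and 17 lower, with 3 higher and 7 lower in complex I, 1 and 1 in complex IV, and 0 higher in complex V, where the count at an unadjusted p under 0.05 was also 0 and DESeq2 called 5. A filter at CPM 1 in 3 libraries gave 1 higher in complex II, 2 higher in III and a complex III median of −0.157. Requiring |log2FC| above 1 left 1 higher and 1 lower (0 higher and 0 lower in I, 0 lower in II, 0 and 0 in III, 1 and 0 in IV, 0 and 1 in V). Above 0.5, 4 were higher and 11 lower (2 and 5 in I, 0 lower in II, 2 lower in III, 1 and 1 in IV, 0 and 3 in V). With membership by present assignment (CYC1 and NDUFAB1 added, NDUFA4 in complex IV, ATP5IF1, ATP5S and DMAC2 left out), 2 of complex III were higher. Without its most abundant member, complex III had a summed ratio of 1.06. With both COX7A2 listings counted, a choice made after seeing the data, the mean COX7A1 share went from 15.1% to 9.52%, against 16.2% to 10.3% with 1 listing.

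Leaving out 1 library at a time gave 12 to 26 members higher (without control library 3 and ATRA library 2), 1 to 2 higher past |log2FC| 1 (NDUFB1 at 1.01 without ATRA library 2 and 1.05 without control library 2) and 1 to 2 lower (a COX7C listing without ATRA library 2). The ranges were 6 to 12 higher in complex I, 0 to 1 in II, 1 to 2 in III and 3 to 8 in V, and 4 to 9 lower in IV. COX7A2 ranged from −0.01 to 0.17, NDUFS3 from −0.13 to 0.02 and GABPA from −0.11 to 0.00.

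The methods give 3 animals but the labels do not tie replicate numbers to them. Same-numbered libraries deviated from their group means with correlations across genes of 0.330, −0.0322 and −0.265. The largest correlation of all pairs was not between the same numbers. It was 0.395, between control library 3 and ATRA library 2, and a replicate block by number does not model such a pair. With the replicate block, 16 members were higher and 31 lower, with 1 higher in complex II. For the t.test function, the filter, the added thresholds, the replicate block and the left-out libraries, the shares of all genes are not given here. Whether these shifts are particular to the members was therefore not tested, and neither was their cause.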
